A study of Mus musculus with 15 samples.

Results

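The expression of 9 genes that mark the Purkinje cells of the cerebellum was followed across brain region and mouse line. The genes, chosen by symbol, were Pcp2, Calb1, Car8, Itpr1, Slc1a6, Ppp1r17, Atp2a3, Homer3 and Arhgef33, and all 9 were found among the 26628 genes of the deposited table. All 9 passed the filter on low values that left 15213 genes for testing. RNA-seq libraries came from the whole cerebellum (Ce) or striatum (St) of male mice of the outbred Hsd:ICR strain, labelled as 6 weeks old. The methods of the study state an older age for the mice than the labels do. The Hi mice came from a line bred for high voluntary wheel running (Selected in the labels), and the Co mice from a control line of the same strain (Control in the labels). All mice, Co and Hi alike, had lived with a running wheel before dissection, so no group without a wheel was compared. The groups were CeCo, CeHi and StCo with 4 samples each and StHi with 3, as 1 StHi sample had been taken out by the authors on the basis of its principal components. Each line is a single breeding line, so that selection and drift between the lines cannot be told apart.

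Purkinje cells are the output neurons of the cerebellar cortex. They are large inhibitory neurons that receive glutamate from parallel fibers and from a climbing fiber, and they project to the cerebellar and vestibular nuclei. Parallel fiber input activates metabotropic glutamate receptors, which through phospholipase C yield inositol trisphosphate (IP3) and release calcium from the endoplasmic reticulum. Many of the genes studied act in this calcium cycle. Itpr1 encodes the IP3 receptor that releases the calcium, Car8 a carbonic anhydrase-related protein that binds this receptor, and Homer3 a scaffold that links it to the glutamate receptors. Atp2a3 encodes the pump SERCA3 that returns calcium to the store, and Calb1 the calcium buffer calbindin. Slc1a6 encodes EAAT4, the glutamate transporter of Purkinje cell spines. Pcp2 (also called L7) encodes a modulator of G proteins, Ppp1r17 an inhibitor of protein phosphatases that is a substrate of the cGMP-dependent kinase, and Arhgef33 a predicted guanine nucleotide exchange factor for small GTPases.

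The genes lie on 6 chromosomes of GRCm38, annotated by GENCODE M21, and all are protein coding. Itpr1 (chr6:108213096-108551109, + strand) and Ppp1r17 (chr6:56017497-56032689, + strand) are on chromosome 6. Car8 (chr4:8143362-8239041, - strand) and Calb1 (chr4:15881264-15908064, + strand) are on chromosome 4. Pcp2 (chr8:3623371-3625545, - strand) and Homer3 (chr8:70282827-70294361, + strand) are on chromosome 8. Slc1a6 (chr10:78780496-78814765, + strand), Atp2a3 (chr11:72961169-72993044, + strand) and Arhgef33 (chr17:80307407-80400081, + strand) are on chromosomes 10, 11 and 17. Exons of Pcp2 overlap exons of Pet100 on the other strand, and those of Homer3 overlap Ddx49, those of Itpr1 overlap Gm44101 and Gm44040, and those of Arhgef33 overlap Gm10190, each also on the other strand. Whether the counting used strand is not given in the sources used here, so reads of these 4 genes and of their antisense neighbours cannot be told apart.

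Since the genes are high in the same region, their promoters were searched for 3 motifs known from Purkinje cell genes or from promoters at large. RefSeq promoters (GRCm38.p6, 250 bases before to 50 after the start) were found for 5 of the 9 genes, Pcp2, Homer3, Slc1a6, Atp2a3 and Arhgef33. The motif AGGTCA is the half-site of nuclear receptors, including ROR alpha, a receptor that Purkinje cells need for their maturation. On either strand it was in 3 of the 5 promoters, those of Pcp2, Arhgef33 and Homer3, and in 16.05% of all 27025 promoters of that length. In Pcp2 it began at position -12 from the start on the strand of the gene, and in Arhgef33 and Homer3 it was on the opposite strand, at -76 and -157. The RefSeq start of Homer3 lies downstream of its GENCODE start, so the half-site of Homer3 falls inside the gene as GENCODE annotates it. The full ROR response element, searched on both strands and containing the half-site, was in 0 of the 5 and in 0.411% of all promoters. TATAAA was in 0 of the 5 and in 14.2% of all promoters. The 3 promoters with the half-site are shown from 5′ to 3′ on the strand of the gene. Capitals mark the half-site, which reads TGACCT where it is on the opposite strand.
Pcp2, chr8:3625498-3625797 (- strand): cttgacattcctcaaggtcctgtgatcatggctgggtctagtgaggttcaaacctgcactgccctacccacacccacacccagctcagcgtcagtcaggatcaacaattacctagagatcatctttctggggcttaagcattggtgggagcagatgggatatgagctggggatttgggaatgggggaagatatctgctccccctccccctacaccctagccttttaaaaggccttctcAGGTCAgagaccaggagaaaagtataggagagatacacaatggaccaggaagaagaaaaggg
Arhgef33, chr17:80307157-80307456 (+ strand): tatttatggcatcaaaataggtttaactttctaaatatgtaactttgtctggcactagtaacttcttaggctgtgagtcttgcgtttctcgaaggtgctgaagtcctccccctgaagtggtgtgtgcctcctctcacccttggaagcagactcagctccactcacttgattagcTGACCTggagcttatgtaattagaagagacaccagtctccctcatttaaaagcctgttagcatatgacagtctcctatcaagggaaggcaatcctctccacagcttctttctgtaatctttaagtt
Homer3, chr8:70282749-70283048 (+ strand): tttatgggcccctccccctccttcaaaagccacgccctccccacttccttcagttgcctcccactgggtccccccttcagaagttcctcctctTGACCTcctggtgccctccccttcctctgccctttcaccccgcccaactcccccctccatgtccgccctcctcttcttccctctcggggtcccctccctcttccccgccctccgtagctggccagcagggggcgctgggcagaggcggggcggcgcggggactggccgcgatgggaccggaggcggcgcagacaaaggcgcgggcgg
The GC content of the 5 promoters was 43.3% in Arhgef33, 51% in Pcp2, 68.3% in Atp2a3, 69.7% in Homer3 and 75.7% in Slc1a6, and the median of all promoters was 52.7%. A match describes the letters only, and binding was not measured.

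The deposited values are fragment counts divided by a library-size factor and not by gene length, and are called normalized counts here. The value of 1 fragment was 0.841 to 1.30 normalized counts, and the libraries held 32909383 to 47485535 fragments. The summed markers of granule cells, the most numerous cerebellar neurons, were at 3.10% to 4.35% of their Ce mean in the 7 St samples. The summed markers of striatal projection neurons were at 5.47% to 6.27% of their St mean in the 8 Ce samples. Thus every sample carried the markers of its labelled region. The summed choroid plexus markers ranged from 1031 to 116421 normalized counts among the Ce samples and did not part the lines. The sample CeHi 3 stood apart in another way. Its values fell with gene length, by 0.07 on the log2 scale for each doubling of the exon length, whereas the slopes of the other 7 Ce samples were between -0.02 and 0.03.

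In the Ce the Purkinje cell genes were among the well expressed genes, and in the St 7 of the 9 were at 4.63% or less of their Ce mean. Pcp2 had 7267, 8129, 7003 and 8489 normalized counts in the CeCo samples and 8178, 8713, 8317 and 9954 in the CeHi samples. In the St it had 3.70, 6.92, 1.05 and 7.31 in StCo and 7.78, 3.88 and 8.31 in StHi, which were 1 to 8 fragments per sample. Its counts in the St were thus near the limit of detection, at 0.0674% ± 0.0328 (SD, n = 7) of the Ce mean. Ppp1r17 had 8739 to 10983 normalized counts in the 8 Ce samples and 13.7 to 38.8 in the 7 St samples. Its St level was 0.249% ± 0.0976 (SD, n = 7) of the Ce mean. Arhgef33 had 6371 to 8277 in the Ce and 29.8 to 52.2 in the St, where its level was 0.593% ± 0.131 (SD, n = 7) of the Ce mean.

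The genes of the calcium store split into those far lower in the St and those that the St also expressed at a high level. Car8 had 45002 to 57303 normalized counts in the Ce and 360.2 to 413 in the St, or 0.734% ± 0.0424 (SD, n = 7) of the Ce mean. Atp2a3 had 9756 to 11394 in the Ce and 174 to 254 in the St, or 1.95% ± 0.237. Homer3 had 9797 to 12036 in the Ce and 217 to 267 in the St, or 2.26% ± 0.148. These 3 genes act on the same calcium store and were all below 3% of their Ce level in the St. Slc1a6, the transporter, had 4704 to 5566 in the Ce and 184 to 305 in the St, or 4.63% ± 0.724. Calb1 and Itpr1 were different. Calb1 had 42708 to 52015 in the Ce and 8223 to 12723 in the St, or 24.4% ± 3.77. Itpr1 had 113088 to 158667 in the Ce and 34560 to 51110 in the St, or 32.2% ± 3.63. Both genes are known from striatal projection neurons as well as from Purkinje cells.

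**Figure D1:**
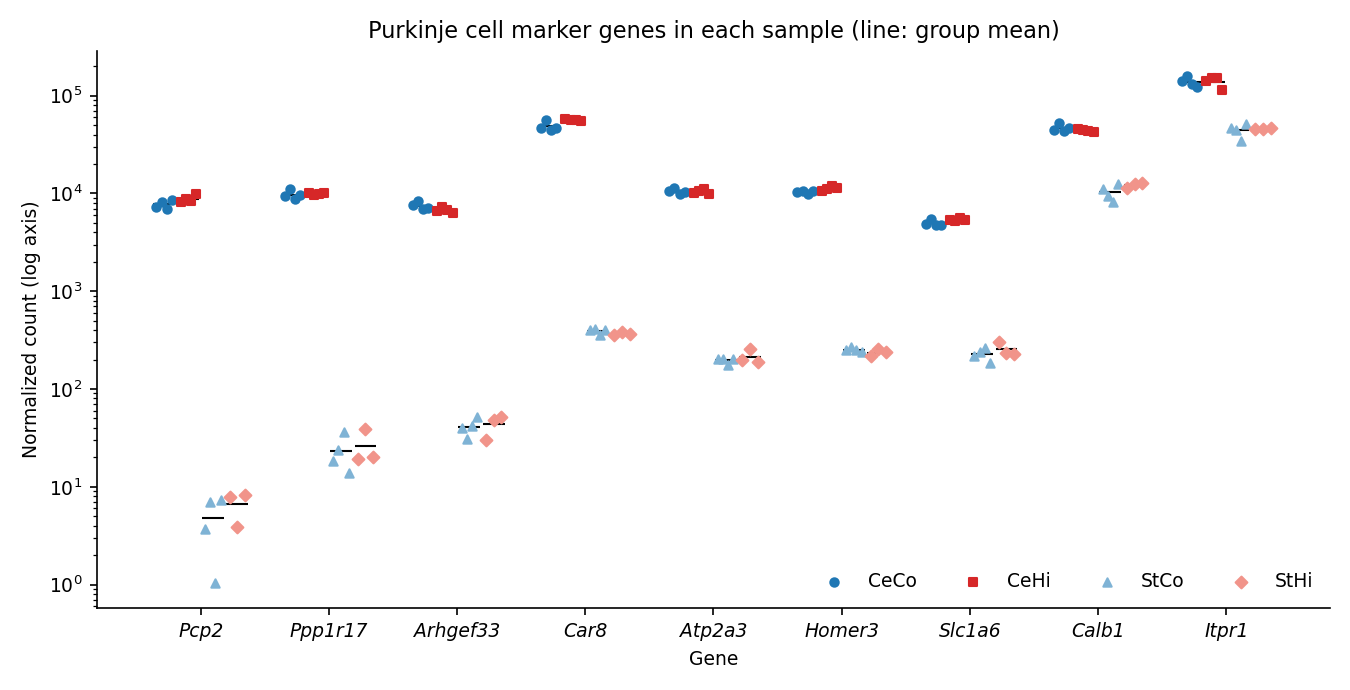
Normalized counts of the 9 genes (log axis) in each sample of the groups CeCo, CeHi, StCo and StHi, with a short line at each group mean. In every gene the 8 Ce samples lie above the 7 St samples, by the widest distance in Pcp2, whose St samples had 1.05 to 8.31 normalized counts, and by the narrowest in Itpr1.

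In the limma model of all samples, all 9 genes were higher in the Ce at an FDR-adjusted P-value under 0.05, as were 40.6% of all genes tested. All 9 were chosen as markers of a cerebellar cell, with earlier results of these data known. For 5 of them, Homer3, Car8, Atp2a3, Pcp2 and Arhgef33, the study had listed a region effect on these same samples. The region values of all 9 thus describe the list and are not independent evidence of its direction. Pcp2 and Ppp1r17 were under 1 CPM in every St sample and passed the filter on low values through the Ce samples. The log2 fold change between Ce and St, on the scale of log2(normalized count + 1), was 10.40 for Pcp2 (SE 0.26), 8.66 for Ppp1r17 (SE 0.18), 7.38 for Arhgef33 (SE 0.12) and 7.08 for Car8 (SE 0.04). It was 5.67 for Atp2a3 (SE 0.06), 5.46 for Homer3 (SE 0.04) and 4.42 for Slc1a6 (SE 0.07). Calb1 and Itpr1 followed at 2.02 (SE 0.07) and 1.63 (SE 0.08). On the linear scale Slc1a6 was 21.4-fold, Calb1 4.06-fold and Itpr1 3.08-fold higher in the Ce. The FDR-adjusted P-values from limma were lowest for Car8 (1.8e-23) and highest for Itpr1 (1.6e-11). The median over the 9 genes was 5.67, whereas that of all genes tested was 0.01. In these bulk samples fewer cells of a type and less RNA per cell cannot be told apart.

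The markers of granule cells, which the striatum lacks, were set beside these levels. All 10 passed the same test as higher in the Ce, with a median log2 fold change of 5.43. Gabra6 and Fat2, which granule cells express, were at 0.0337% ± 0.00913 and 0.0418% ± 0.0149 (SD, n = 7) of their Ce means in the St. Cbln3 was at 0.0557% ± 0.00954. These 3 were the lowest of the list, and Gabrd was highest at 43.9% ± 5.59. The median over the 10 was 3.05%, and over the 9 Purkinje cell genes, from 0.0674% for Pcp2 to 32.2% for Itpr1, it was 1.95%. The genes of the granule cell list differed widely, and no estimate of cerebellar RNA in the St samples was drawn from them. Of 26 other Purkinje cell genes in the table, 20 passed the test as higher in the Ce and 6 as lower, with a median of 1.94, whereas 40.6% of all genes were higher and 39.6% lower. Skor2, a transcriptional regulator of Purkinje cells, had 422 to 618 normalized counts in the Ce and 0 to 3.96 in the St. Lhx1, a transcription factor of the same cells, had a log2 fold change of 7.48 (SE 0.41). The 6 that were higher in the St were Pcp4, Foxp2, Klhl1, Bcl11a, Doc2b and Cbln4, which are known from forebrain neurons as well.

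**Figure D2:**
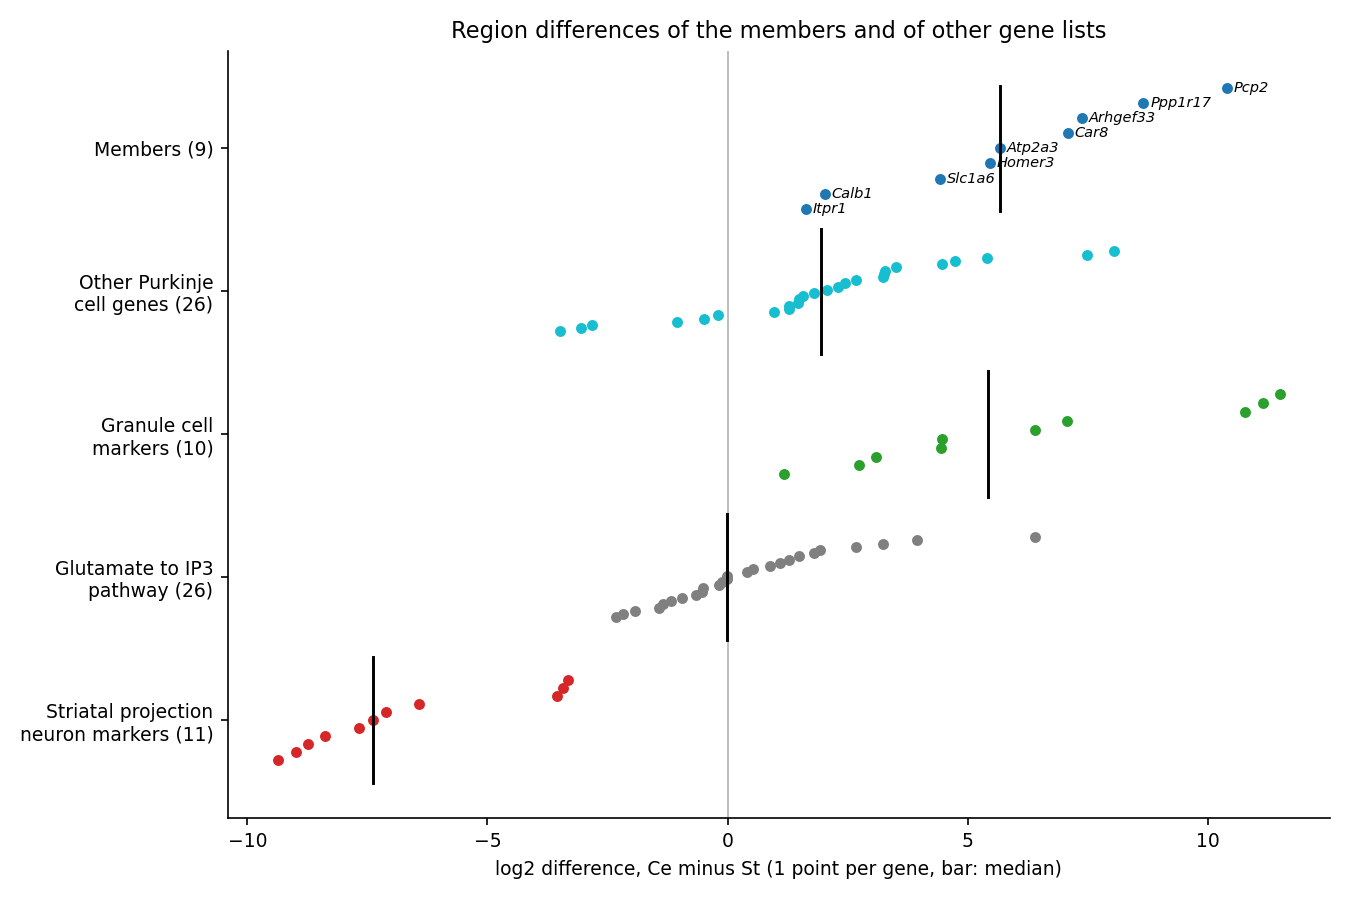
Log2 difference between Ce and St for each gene (points) of the 9 members, of 26 other Purkinje cell genes, 10 granule cell markers, 26 genes of the pathway from glutamate to IP3 and 11 striatal projection neuron markers, with the median of each list as a bar. The medians are 5.67, 1.94, 5.43, -0.02 and -7.38 in that order, and Calb1 and Itpr1 lie lowest among the members.

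Divided by exon length, the levels of the 9 genes in the Ce lay within about 1 order of magnitude. The lengths were those of all exons annotated in GENCODE M21, so a gene read mainly from a shorter transcript is understated. Car8 was highest at 13622 ± 1353 normalized counts per kilobase (SD, n = 8), followed by Calb1 at 9360 ± 616 and Itpr1 at 7603 ± 848. Ppp1r17 had 5595 ± 369 and Pcp2 4517 ± 495. Homer3 had 3148 ± 202, Slc1a6 2395 ± 158, Atp2a3 1982 ± 103 and Arhgef33 1514 ± 130. The sample ranges of Itpr1 and Ppp1r17 and those of Ppp1r17 and Pcp2 overlapped, and those of the other 6 neighbouring pairs in this order did not. In the St the order was another one. Itpr1 (2450 ± 276, SD, n = 7) and Calb1 (2287 ± 352) were highest and overlapped, Slc1a6 (111 ± 17.3), Car8 (100 ± 5.78) and Homer3 (71.2 ± 4.67) followed, and Atp2a3 (38.6 ± 4.70), Ppp1r17 (13.9 ± 5.46), Arhgef33 (8.97 ± 1.98) and Pcp2 (3.05 ± 1.48) were lowest. The sample ranges of Slc1a6 and Car8 overlapped there, as did those of Ppp1r17 and Arhgef33, and those of the other 5 neighbouring pairs from Calb1 downward did not.

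The Purkinje cell genes were also compared with the other members of their families, of which 17 were tested. Itpr1 was the main IP3 receptor in both regions, at 7603 normalized counts per kilobase in the Ce against 41.6 for Itpr2 and 75.8 for Itpr3, and at 2450 in the St against 46.3 and 19.6. For the calcium pumps Atp2a2, the pump SERCA2 of most cells, was above Atp2a3 in both regions. Atp2a2 had 9243 per kilobase in the Ce and 8499 in the St, whereas Atp2a3 had 1982 and 38.6. The Homer genes changed places between regions. Homer3 had 3148 per kilobase in the Ce against 206 for Homer1 and 67.3 for Homer2. In the St, Homer1 had 948 and Homer2 172 against 71.2 for Homer3. The region effects of Homer1 (log2 fold change -2.19, SE 0.09) and Homer2 (-1.34, SE 0.08) were opposite in sign to that of Homer3.

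Among the glutamate transporters, Slc1a6 and its neuronal relative had opposite orders. Slc1a1, the neuronal transporter EAAT3, had 191 normalized counts per kilobase in the Ce and 817 in the St, whereas Slc1a6 had 2395 and 111. Slc1a3, the transporter GLAST of Bergmann glia, had 8122 in the Ce and 3483 in the St. Slc1a2, the astrocyte transporter GLT-1, had 3127 and 10836. Over the family list, 6 genes passed the test as higher in the Ce and 10 as lower, with a median of -0.50, beside 40.6% and 39.6% of all genes. Car2 was the 1 gene of the list that did not pass, at 4424 per kilobase in the Ce and 4935 in the St. Calb2, which encodes the buffer calretinin of granule cells, had 5476 in the Ce and 655 in the St.

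**Figure D3:**
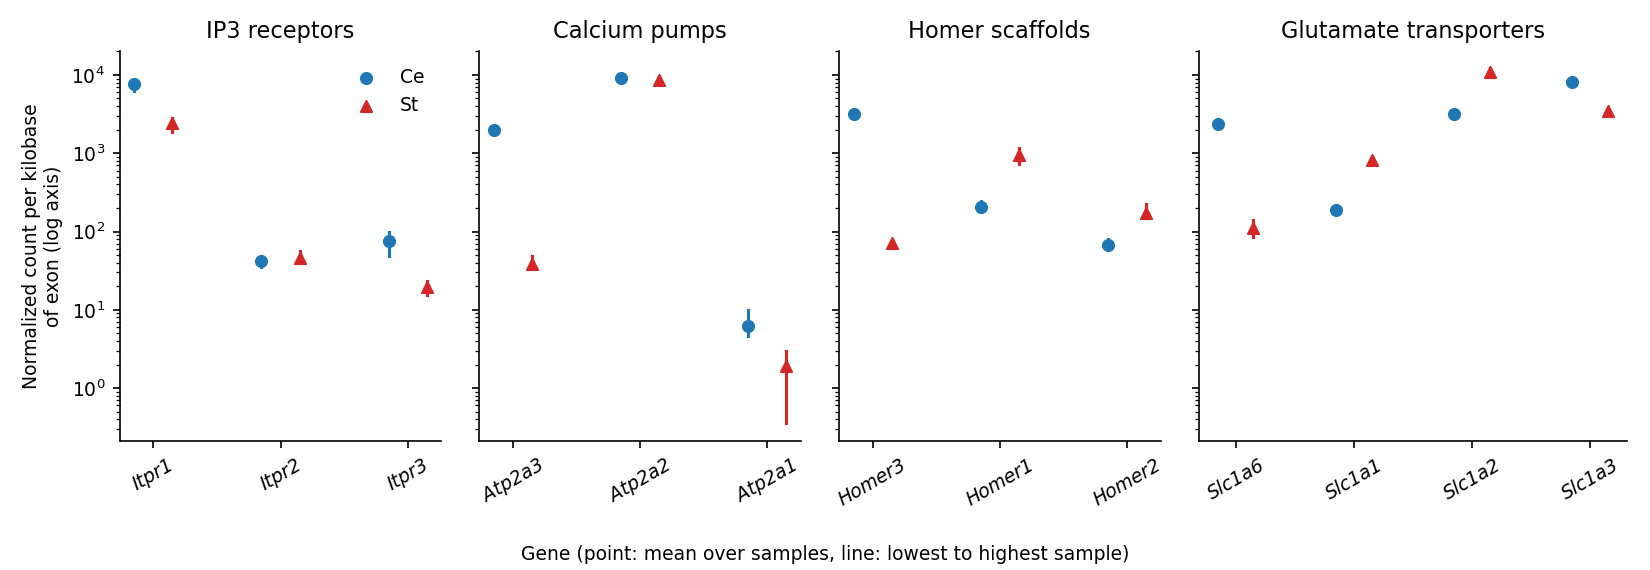
Normalized counts per kilobase of exon (log axis) in the Ce (circles, n = 8) and St (triangles, n = 7) for the IP3 receptors, the calcium pumps, the Homer scaffolds and the glutamate transporters, as means with lines from the lowest to the highest sample. Homer3 and Slc1a6 are higher in the Ce, at 3148 and 2395, and Homer1, Homer2, Slc1a1 and Slc1a2 are higher in the St.

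The comparison of lines in the Ce asked whether these genes differed between the mice bred for running and the control mice. At an FDR-adjusted P-value under 0.05 in limma, 0 of the 9 genes differed, whereas 5.94% of all genes tested did. At an unadjusted P-value under 0.05 in this model of all samples there were 2 of 9, Car8 and Homer3, and 19.7% of all genes. The edgeR quasi-likelihood test on recovered fragments also called 0 of 9, and DESeq2 called 1, Car8. The line log2 fold change was taken as Co minus Hi, and a negative value is higher in Hi. Over the 9 genes it was between -0.21 and 0.15 with a median of -0.03, and the median of all genes was 0.00.

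Car8 came closest to the threshold. It had 46976, 55882, 45002 and 46821 normalized counts in CeCo and 57303, 56281, 56405 and 55203 in CeHi. The CeHi samples lay close together, and the sample CeCo 1 was as high as they were, whereas the other 3 CeCo samples were lower. The group means were 48670 ± 4891 in CeCo and 56298 ± 860.4 in CeHi (SD, n = 4 each). The log2 fold change was -0.21 (SE 0.06), or 1.16-fold higher in CeHi with a 95% interval of 1.06 to 1.26. Its unadjusted P-value in limma was 0.0032 and the FDR-adjusted one 0.053. The call depended on the setting, as Car8 passed under 8 of the 27 alternatives with adjusted P-values from 0.0044 to 0.14 over all of them, and the direction held in all 27. Without CeCo 1 the log2 fold change was -0.28 and the FDR-adjusted P-value in limma 0.0044.

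The summed markers of other cell types were compared between the lines in the Ce, where the sums of the 2 unipolar brush cell markers were the only ones without overlap. The summed granule cell markers were 293604 to 334073 normalized counts in CeCo and 269566 to 298131 in CeHi, and 0 of the 10 were called. The summed Bergmann glia and astrocyte markers were 103538 to 117285 in CeCo and 107535 to 122254 in CeHi, with 0 of 7 called. The summed oligodendrocyte markers were 181792 to 222619 in CeCo and 207061 to 264665 in CeHi, with 0 of 6 called. Those of cerebellar inhibitory interneurons were 5742 to 7721 in CeCo and 6225 to 6944 in CeHi. The unipolar brush cell markers summed to 1950 to 2542 in CeCo and 3225 to 3410 in CeHi, with 0 of 2 called. For Eomes, 1 of the 2, the CeCo and CeHi samples did not overlap. Its log2 fold change was -0.65 with a wide error (SE 0.56, adjusted P-value of 0.58 in limma), in a model that shares 1 spread between regions. The missing call thus does not show equal levels, and the study listed Eomes as higher in Hi across both regions. No marker of these lists was at 0 in any Ce sample. In the lists of cerebellar inhibitory interneurons (6), cortical excitatory neurons (4), midbrain and hindbrain neurons (2 tested), choroid plexus (6) and microglia (5), 0 genes were called in either line contrast. Over the marker lists without a call, the 3 genes with the smallest Ce P-value of each had adjusted P-values from 0.063 (Penk) upward in limma. The part of these cell types in the Car8 result was not tested.

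Homer3 was the 1 gene of the 9 whose CeCo and CeHi samples did not overlap, as was the case for 13.3% of all genes tested. It had 10433, 10614, 9797 and 10478 normalized counts in CeCo and 10685, 11101, 12036 and 11478 in CeHi. The lowest CeHi sample was just above the highest CeCo sample. The log2 fold change was -0.13 (SE 0.06), or 1.09-fold higher in CeHi with a 95% interval of the log2 value of -0.25 to -0.0048, and it did not pass the threshold (adjusted P-value of 0.23 in limma).

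The other 7 genes had unadjusted P-values of 0.24 or larger in the limma model of all samples, and the samples of their groups overlapped. Itpr1 had 141267, 158667, 132454 and 123433 normalized counts in CeCo and 141441, 152623, 151226 and 113088 in CeHi, for which the line difference was 0.00 on the log2 scale with a 95% interval of -0.24 to 0.25. Calb1 had 43774 to 52015 in CeCo and 42708 to 45274 in CeHi (log2 fold change 0.10, interval -0.11 to 0.30). Atp2a3 had 9959 to 11394 in CeCo and 9756 to 10984 in CeHi (0.03, interval -0.15 to 0.20). For the release channel, the buffer and the pump of the calcium cycle, the intervals thus reach at most 0.30 on the log2 scale. Slc1a6 had 4704 to 5424 in CeCo and 5195 to 5566 in CeHi (-0.12, interval -0.33 to 0.09). Arhgef33 had 6867 to 8277 in CeCo and 6371 to 7209 in CeHi (0.15, interval -0.18 to 0.48). With the Ce fitted alone, Slc1a6 and Arhgef33 had unadjusted P-values of 0.044 and 0.041 in limma. Their FDR-adjusted P-values in that fit were 0.23 and 0.22. The unadjusted P-values of Calb1, Atp2a3 and Itpr1 there were 0.12 or larger in limma.

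For Pcp2 and Ppp1r17 the errors were larger, since the model shares 1 spread between regions and their few St counts scatter. Pcp2 had a mean of 7722 ± 702 in CeCo and 8790 ± 808 in CeHi (SD, n = 4 each), with a log2 fold change of -0.18 (SE 0.36, interval -0.95 to 0.59). With the Ce fitted alone the SE was 0.08, and Pcp2 had an unadjusted P-value of 0.037 and an FDR-adjusted one of 0.21 in limma. Ppp1r17 had 9710 ± 942 in CeCo and 9950 ± 235 in CeHi, with a log2 fold change of -0.03 (SE 0.25), and an SE of 0.06 with the Ce fitted alone.

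**Figure D4:**
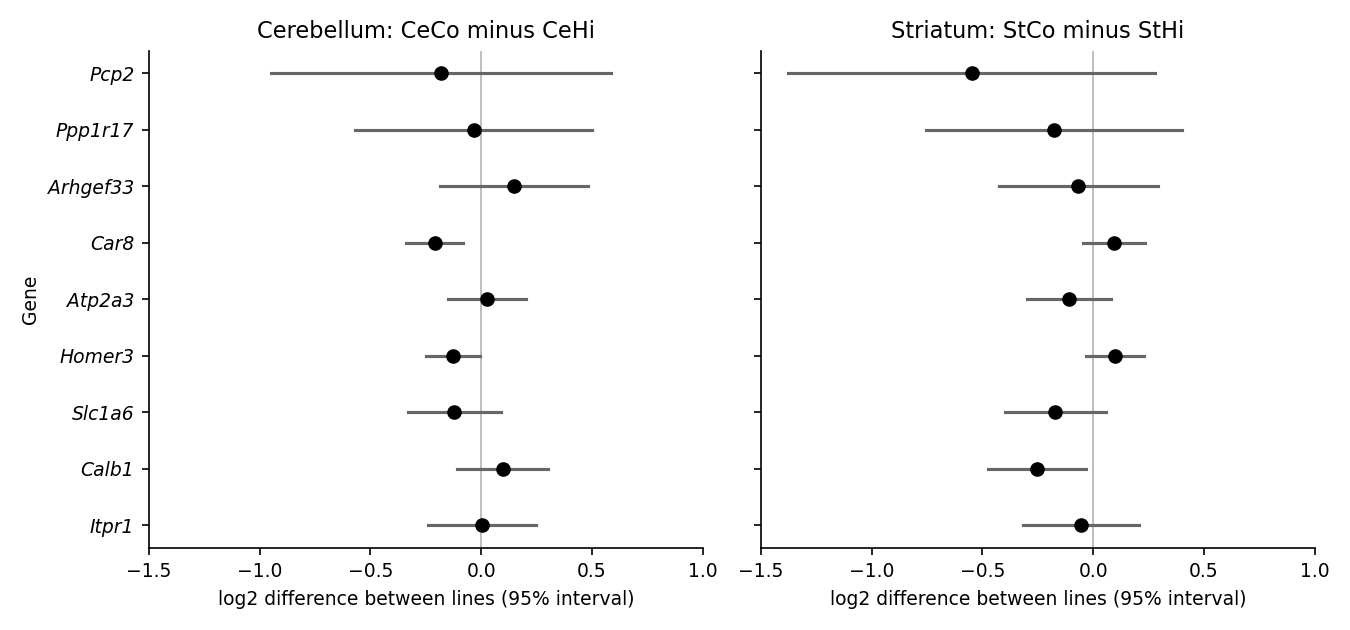
Log2 difference between the lines (Co minus Hi) of the 9 genes in the Ce and the St, with 95% intervals of the limma model. In the Ce the intervals of Car8 (-0.34 to -0.08) and Homer3 (-0.25 to -0.0048) lie below 0, and in the St that of Calb1 (-0.48 to -0.03), none passing after adjustment.

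In the St limma called 0 of the 9 between the lines at the same threshold, against 2.66% of all genes. At an unadjusted P-value under 0.05 there was 1 of 9, Calb1, and 14.1% of all genes, and edgeR and DESeq2 also called 0. Calb1 had 11040, 9384, 8223 and 12429 normalized counts in StCo and 11334, 12452 and 12723 in StHi. All 3 StHi samples were among the higher values, but StCo 3 was as high. The log2 fold change was -0.26 (SE 0.10), or 1.19-fold higher in StHi with a 95% interval of 1.02 to 1.39, with an adjusted P-value of 0.26 in limma. The summed striatal projection neuron markers were 219767 to 301130 in StCo and 230544 to 301145 in StHi, with 0 of 11 called. The summed oligodendrocyte markers did not overlap, at 196890 to 284606 in StCo and 300421 to 341456 in StHi, nor did those of the choroid plexus, at 1260 to 1779 and 1781 to 18073, with 0 of 6 called in each list. The summed cortical excitatory neuron markers were 32773 to 48772 in StCo and 17219 to 37114 in StHi, and the granule cell markers 9450 to 11442 and 10654 to 13270. The part of these cell types in the St line differences, those of Calb1 and of the genes named further on, was not tested. Itpr1, the other gene with a high St level, had 34560 to 51110 in StCo and 45094 to 46460 in StHi (-0.05, interval -0.32 to 0.21). For none of the 9 genes were the StCo and StHi samples free of overlap, which was the case for 13.1% of all genes.

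The interaction, the Ce line difference minus the St line difference, passed the same threshold for 0 of the 9 genes in limma and for 0.532% of all genes. At an unadjusted P-value under 0.05 there were 3 of 9, Car8, Homer3 and Calb1, and 9.56% of all genes, and edgeR and DESeq2 also called 0. Car8 had an interaction of -0.30 (SE 0.09, adjusted P-value of 0.18 in limma). Its line difference was -0.21 in the Ce, and that in the St was 0.09. Without the sample CeCo 1 it was -0.37 with an adjusted P-value of 0.042 in limma. Homer3 had -0.22 (SE 0.08) and Calb1 0.35 (SE 0.14), with adjusted P-values of 0.35 and 0.41 in limma. The Car8 and Homer3 values were thus higher in Hi in the Ce and lower in Hi in the St, and those of Calb1 lower in Hi in the Ce and higher in the St, without passing the threshold.

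The 9 genes tended to vary together over the Ce samples, with a shared order of samples seen mainly in CeCo. With the group means removed, the pairwise Pearson correlation over the 8 Ce samples, which share depth and dissection within a sample, had a median of 0.54, and 33 of the 36 pairs were positive. It was 0.93 for Calb1 and Car8 and 0.89 for Car8 and Ppp1r17, whereas that of Pcp2 and Itpr1 was -0.54. The share of positive pairs among other genes was not computed. The sample CeCo 1 was the highest of its group for 8 of the 9 genes and CeCo 2 the lowest for 8. In CeHi the order was mixed, as the samples 0, 1, 2 and 3 were highest for 2, 2, 3 and 2 genes. CeHi 3 was also the lowest of its group for 5. In CeHi 3, the sample with the length trend, Pcp2 was 0.27 above and Itpr1 0.30 below the mean of the 8 samples on the log2 scale, as written in the plot of the deviations. Pcp2 has exons of 1828 bases in all and Itpr1 of 18319, the shortest but 1 and the longest of the 9, and CeHi 3 bears on both line differences. Ppp1r17 and Slc1a6, of 1757 and 2152 bases, were only 0.05 and 0.07 above the mean in CeHi 3. With the length trend removed from each sample, the Ce line log2 fold change of Pcp2 was -0.15 and that of Itpr1 -0.03, and without CeHi 3 they were -0.12 and -0.10, with no call for either.

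**Figure D5:**
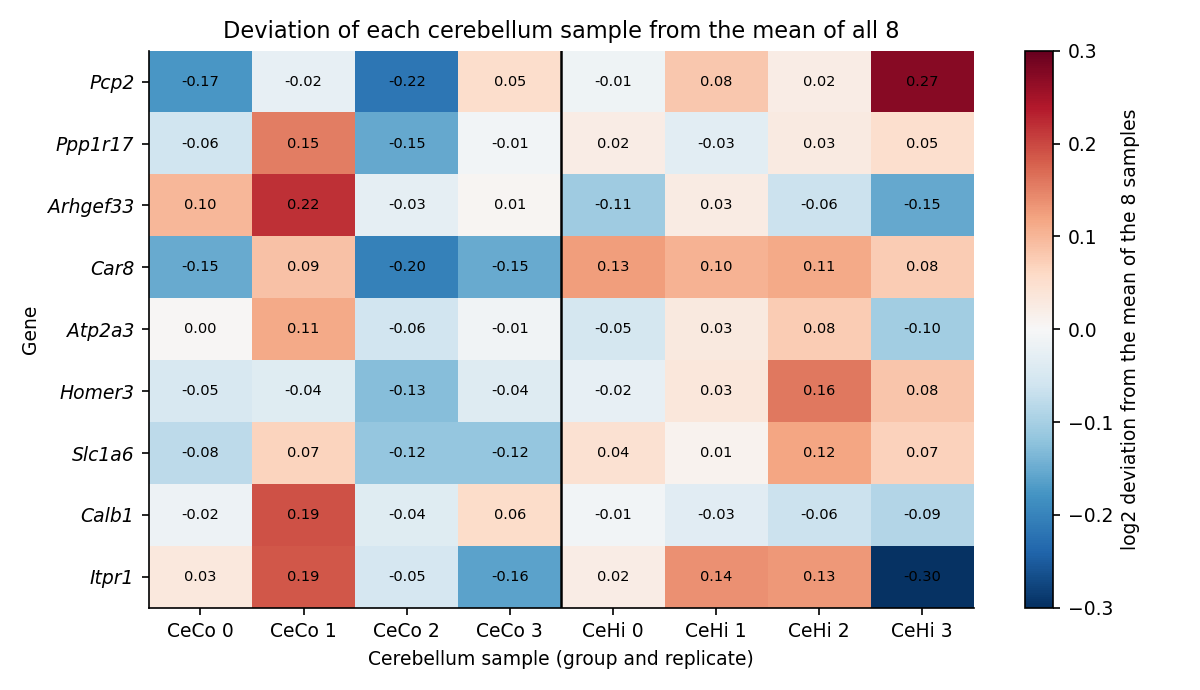
Log2 deviation of each Ce sample (columns) from the mean of all 8 Ce samples for each of the 9 genes (rows), with red above and blue below the mean. The sample CeCo 2 is below the mean for all 9 genes, and CeHi 3 holds both the lowest value, Itpr1 at -0.30, and the highest, Pcp2 at 0.27.

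The genes most like the 9 over the 8 Ce samples were taken by their correlation with the mean of the centred log2 values of the 9. Among the highest were Inpp5a (r = 0.97), Gm3452 (0.94), Mtss1 (0.93) and Mtpap (0.92), where 11 of 15204 other genes were over 0.9 and the 99th percentile was 0.73. Inpp5a encodes a phosphatase that degrades IP3, and had 16184 to 19680 normalized counts in the Ce and 3251 to 3661 in the St. Mtss1 encodes a membrane-bending protein of dendritic spines, with 7201 to 9245 in the Ce and 1650 to 1911 in the St. Gm3452 was low in both regions, with 39.3 to 66.0 in the Ce and 21.0 to 49.4 in the St. Mtpap was nearly level between regions, with 1256 to 1462 and 1145 to 1265 (log2 fold change 0.22). With 8 samples these correlations are descriptions.

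Of the 26 other Purkinje cell genes tested, 2 (7.69%) passed in the Ce, beside 5.94% of all genes. Both were higher in CeHi, and the median over the list was -0.10. Gng13, a G protein gamma subunit, had 3653, 4310, 3757 and 3802 normalized counts in CeCo and 4992, 5074, 5167 and 5711 in CeHi. Its groups did not overlap, with a log2 fold change of -0.43 (SE 0.08, adjusted P-value of 0.0042 in limma), and it passed under all 27 alternatives. Rgs8, a regulator of G protein signaling in Purkinje cells, had 45914 to 53742 in CeCo and 54988 to 63012 in CeHi, with a log2 fold change of -0.27 (SE 0.07, adjusted P-value of 0.026 in limma). Rgs8 lost its call under 6 of the 27 alternatives, each of which left out a Ce sample.

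In the pathway from metabotropic glutamate receptors to the IP3 receptor, 4 of 26 tested genes (15.4%) passed in the Ce, beside 5.94% of all genes, 1 higher in CeCo and 3 higher in CeHi. The median over the list was -0.02. Itpr3, a minor IP3 receptor in this tissue, had 842.5, 804, 793 and 896 normalized counts in CeCo and 532, 569, 595 and 440 in CeHi. Its groups did not overlap, with a log2 fold change of 0.66 (SE 0.12, adjusted P-value of 0.0031 in limma), and it passed under all 27 alternatives. Itpr1, far higher per kilobase in the same samples, did not pass. Prkca, a protein kinase C, had 2282 to 2774 in CeCo and 2591 to 3528 in CeHi (-0.32, SE 0.08, adjusted P-value of 0.027 in limma). Itpka, a kinase that phosphorylates IP3, had 1928 to 2282 in CeCo and 2418 to 2755 in CeHi (-0.25, SE 0.06, adjusted P-value of 0.030 in limma). Ryr3, a ryanodine receptor of the calcium store, had 1061 to 1279 in CeCo and 1254 to 1958 in CeHi (-0.46, SE 0.13, adjusted P-value of 0.048 in limma). Prkca, Itpka and Ryr3 lost their calls under 6, 3 and 12 of the 27 alternatives. Plcb4, a phospholipase C, did not pass.

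Of the 17 tested family members, 2 (11.8%) passed in the Ce, beside 5.94% of all genes. They were Itpr3, the same call as in the pathway, and Slc1a1. Slc1a1 had 1400 to 1573 in CeCo and 1626 to 1781 in CeHi (-0.20, SE 0.05, adjusted P-value of 0.033 in limma), with no overlap, and lost its call under 6 of the 27 alternatives. Slc1a6 itself had a log2 fold change of -0.12 and was not called, and the difference between the 2 transporters was not tested.

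In the St, 2 of the 26 other Purkinje cell genes (7.69%) passed, both higher in StHi, beside 2.66% of all genes. In the pathway it was 1 of 26 (3.85%), Cbln1. Klhl1 had 248.6 to 423 normalized counts in StCo and 505 to 604 in StHi (-0.80, SE 0.19, adjusted P-value of 0.033 in limma). Ebf2 had 11.1 to 17.9 in StCo and 20.8, 73.8 and 47.5 in StHi (-1.45, SE 0.30, adjusted P-value of 0.012 in limma). These are low counts, under 1 CPM in all StCo samples and in the lowest StHi sample, and Ebf2 needed Ce samples to pass the filter. Cbln1, a synapse organizer that granule cells secrete and a gene of the granule cell list too, had 282 to 449.8 in StCo and 531 to 551 in StHi (-0.51, SE 0.12, adjusted P-value of 0.026 in limma). Klhl1, Ebf2 and Cbln1 passed under 21, 24 and 23 of the 27 alternatives, and each of these 3 calls was lost without StHi 1 and without StHi 2. The interaction passed for Klhl1 (1.28, SE 0.26, adjusted P-value of 0.038 in limma) and Cbln1 (0.80, SE 0.16, adjusted P-value of 0.036 in limma), and those calls were lost under 13 and 12 of 26 alternatives.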

How the data were processed

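RNA-seq values of 15 samples were analysed, 4 each of CeCo, CeHi and StCo and 3 of StHi, grouped from their deposited labels. The authors mapped paired-end reads to GRCm38 (TopHat2) and scaled counts per gene for library size (Cuffnorm 2.2.1), per the labels and the methods of the study. What the authors deposited is an expression signal, in which fragment counts were divided by a factor for library size. They are named for fragments per kilobase, but they were not divided by length. Each sample has a smallest step, of which 99.6% to 99.8% of its low values were whole multiples at a tolerance of 0.1, and division by this step gave the recovered fragments. Counting error only is covered by such fragment numbers.

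Genes with a CPM of at least 1 in 3 or more samples (15213 of 26628) were tested with limma 3.58.1 in R 4.3.3 on log2(value + 1) after TMM (trimmed mean of M-values) scaling with edgeR 4.0.16. The model held the 4 group means of all 15 samples, with trended robust moderation and Benjamini-Hochberg adjustment. Line effects (Co minus Hi) were contrasted in the Ce and in the St, together with the difference of these effects and the region effect (Ce minus St). The edgeR quasi-likelihood test and DESeq2 1.42.0 on recovered fragments were alternatives, as were other pseudocounts, filters, scalings, sample weights, blocks and each sample left out. Samples came from individual mice per the methods, and no pair of samples was a duplicate.

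Exon lengths and positions came from GENCODE M21, where 22467 names of the table were found directly and 2094 through an older symbol. Promoters came from RefSeq. The 9 genes and the gene lists were chosen with earlier results of these data known. Genes named are the 9, those of each list called in a line contrast or the interaction, and the 5 genes that correlate best with the 9. For each marker list without such a call, the rule takes the 3 genes with the smallest P-value in the Ce, which are given as a range. Genes named in addition, as Skor2, Lhx1 and the relatives compared per length, were chosen after their values were seen. Some genes of the lists and of those that correlate best with the 9 are not reported here.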

Additional observations from a re-analysis of the deposited data

Results flagged for a closer look

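The value of Atp2a3 in the sample StCo 2, 174.3 normalized counts, stood apart from the other 3 StCo samples, which lay between 201.2 and 205. It was found among 27 groups of 4 samples, 1 per gene and group, that were tested for a single distant value, and chance alone gives about 1 in 20. The sample was also the lowest StCo sample for Calb1, Car8, Itpr1 and Pcp2, the last with 1 fragment. It was the highest StCo sample for Slc1a6 (260.4) and Ppp1r17 (36.8), and neither for Homer3 and Arhgef33.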

How the results depend on the processing

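In the Ce, the count of the 9 genes called between the lines rose from 0 to 1 (Car8) under the following alternatives. The FDR-adjusted P-value of Car8 was 0.021 with DESeq2 on recovered fragments and 0.021 in limma with sample quality weights. In limma without scaling beyond the library total it was 0.033. With the length trend removed, an alternative chosen after seeing the data, it was 0.04995 in limma. Leaving out 1 sample at a time gave a count of 0 to 1, and the 1 was Car8 without CeCo 1 (0.0044) or without StCo 2 (0.036). The interaction count was 0 to 1 with 1 sample left out (Car8 without CeCo 1). The St count stayed at 0 and the region count at 9 in all alternatives run. Among the genes that did not pass, the sign of the line difference changed in 12 results of 3 genes in the Ce, 8 of 4 genes in the St and 11 of 4 genes for the interaction.

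The replicate numbers were shared between groups. Residuals of same-numbered CeCo and StCo samples correlated across genes (0.156 to 0.276, 4 pairs), whereas those of CeHi and StHi did not (-0.07 to 0.03, 3 pairs). Same-numbered samples of different lines, which cannot share a mouse, had -0.25 to 0.26 in the Ce and -0.03 to 0.22 in the St. Whether Ce and St samples came from the same mice is not given in the labels, and these values cannot settle it. The numbers were therefore not used as pairs in the main model. With the replicate block the count of the 9 in the Ce was 1 (Car8, FDR-adjusted P-value of 0.037), and with the block within line it was also 1 (0.031). The replicate block ended the calls of Ryr3 in the Ce and of Klhl1 in the St and for the interaction (FDR-adjusted P-values of 0.085, 0.063 and 0.080), whereas the block within line kept all 3.

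Over the 3 pathway lists, the 7 genes called in the Ce were 2 to 7 with 1 sample left out. The 3 called in the St became 5 with DESeq2, 5 with quantile scaling, 8 with quality weights and 1 with each region fitted alone, and were 0 to 6 with 1 sample left out (6 without StCo 2, 0 without StHi 1 or StHi 2). The 2 called for the interaction became 4 with edgeR, 5 with DESeq2, 5 with quality weights and 1 with quantile scaling, and were 0 to 4 with 1 sample left out. The cause of these shifts was not tested, beyond the smaller number of samples. The median St level of the 9 genes, 1.95% of the Ce level, was 1.68% on recovered fragments, which are not scaled for depth. In another alternative, without scaling beyond the library total, the median region log2 fold change of all genes moved to 0.13. Differences of a few fragments in the St, as for Pcp2, are below what this depth can show.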
